A study of Mus musculus with 9 samples.

Results

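MHC class I antigen presentation genes encode the proteins that make, carry and display peptides on the surface of nearly every nucleated cell. The 10 genes described here were taken by symbol. They cover the heavy chains H2-K1 and H2-D1, the light chain B2m, the peptide transport and loading genes Tap1, Tap2 and Tapbp, the immunoproteasome subunits Psmb8, Psmb9 and Psmb10, and the regulator Nlrc5. They are 10 of the 56748 gene identifiers in the deposited table. The table is in FPKM, fragments scaled to exon length and to a scale for each library, and a gene was tested when 3 or more of the 9 libraries reached 1 FPKM. All 10 passed that filter, among 14431 tested genes.

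The study profiled poly(A) RNA of granulosa cells, the somatic cells around the oocyte, in a mouse model of premature ovarian failure, with 3 libraries in each of 3 groups. Every mouse was a wild type C57BL/6 female, and ages are not given in the sources used here. CTX_HCQ mice received cyclophosphamide, an alkylating chemotherapy agent, injected at 120 mg per kg, together with oral hydroxychloroquine, an antimalarial that raises lysosomal pH. The daily hydroxychloroquine dose was 40 mg per kg, begun 7 days ahead of the injection and kept up for 4 weeks afterwards. CTX mice received the same cyclophosphamide dose without hydroxychloroquine. Control mice received neither drug, and the sources call them vehicle in one place and untreated in another. The labels do not tell whether a library holds 1 mouse or several, so the p-values below describe the spread between libraries only, part of which may be technical.

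A class I molecule is a heavy chain paired with beta-2-microglobulin and a short peptide. Peptides are cut in the cytosol by the proteasome, whose catalytic subunits are exchanged for the interferon-inducible subunits Psmb8, Psmb9 and Psmb10 in immune or stimulated cells. The transporter Tap1-Tap2 then pumps the peptides into the endoplasmic reticulum, where tapasin (Tapbp) bridges the transporter to the waiting heavy chain. Nlrc5 switches the class I genes on together through a promoter module of S, X and Y boxes, whose X2 and Y parts are bound by CREB-family factors and by the NF-Y complex. Kappa-B sites and interferon-stimulated response elements in the same promoters answer to NF-kappa-B and to interferon regulatory factors.

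The promoters of the heavy chains and the light chain are shown because these 3 genes share that module. RefSeq windows (build GRCm38.p6, whereas the deposited table was made on GRCm39) were found for 8 of the 10 genes, Tap2 and Nlrc5 being without one, and the 250 bases before the annotated start were searched on both strands. For H2-K1 the first of 2 listed windows was used. Capitals mark the X2 core TGACG, the Y core ATTGG, the kappa-B letters (GGG, any 2 bases, TT, any base, CC) and the interferon response core (GAAA, any 2 bases, GAAA), or their reverse complements. No marked motif overlaps another in these windows.
H2-K1, chr17:34000348-34000597, minus strand: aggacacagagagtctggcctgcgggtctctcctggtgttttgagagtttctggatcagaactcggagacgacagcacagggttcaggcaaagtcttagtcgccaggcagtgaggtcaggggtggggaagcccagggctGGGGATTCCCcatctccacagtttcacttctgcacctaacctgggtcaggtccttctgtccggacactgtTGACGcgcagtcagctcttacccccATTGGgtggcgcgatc
H2-D1, chr17:35262844-35263093, plus strand: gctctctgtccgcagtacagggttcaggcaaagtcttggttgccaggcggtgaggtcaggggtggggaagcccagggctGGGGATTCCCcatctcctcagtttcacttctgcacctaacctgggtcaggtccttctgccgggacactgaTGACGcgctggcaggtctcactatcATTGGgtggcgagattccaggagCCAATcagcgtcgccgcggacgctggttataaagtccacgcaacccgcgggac
B2m, chr2:122147437-122147686, plus strand: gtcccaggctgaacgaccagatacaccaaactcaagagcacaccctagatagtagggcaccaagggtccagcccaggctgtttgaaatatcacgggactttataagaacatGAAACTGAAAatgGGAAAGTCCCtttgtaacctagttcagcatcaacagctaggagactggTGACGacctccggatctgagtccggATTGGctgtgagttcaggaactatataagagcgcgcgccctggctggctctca

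In H2-K1, H2-D1 and B2m, TGACG was followed by 20 bases and then ATTGG, on the same strand. That spacing was read off these promoters and then searched for. It was present in 3 of the 8 windows, against 25 of 27025 windows of the same length over all genes, or 0.0925%. Among 12 windows of other class I heavy chains it was present in 1, that of H2-M3. The stretches themselves, with capitals at the bases that are the same in all 3, are as follows.
H2-K1: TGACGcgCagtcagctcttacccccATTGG
H2-D1: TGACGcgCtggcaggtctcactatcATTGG
B2m: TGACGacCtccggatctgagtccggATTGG

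Over these 30 bases, 11 were the same in all 3 genes. H2-K1 and H2-D1 had 23 of 30 in common (76.7%), H2-K1 and B2m 13 of 30 (43.3%), and H2-D1 and B2m 12 of 30 (40.0%). The stretch began 41 bases before the start in H2-K1, 101 bases before it in H2-D1 and 78 bases before it in B2m. The kappa-B letters were found in 3 of the 8 windows, those of H2-K1, H2-D1 and B2m, against 4.0% of all windows. The interferon response core was found in B2m alone among the 8, against 3.04% of all windows. TGACG by itself was found in 5 of the 8 windows and in 17.9% of all windows, and ATTGG in 6 of the 8 and in 34.5%. A letter match describes these windows and is no evidence of a bound factor.

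Psmb9 and Tap1 lie head to head with 225 bases between them, so their windows share 225 bases. The Psmb9 window, which is most of the Tap1 window read from the other strand, is shown because the same TGACG and the same ATTGG lie in the windows of both genes, 140 to 144 and 4 to 8 bases before the Psmb9 start.
Psmb9, chr17:34187331-34187580, minus strand: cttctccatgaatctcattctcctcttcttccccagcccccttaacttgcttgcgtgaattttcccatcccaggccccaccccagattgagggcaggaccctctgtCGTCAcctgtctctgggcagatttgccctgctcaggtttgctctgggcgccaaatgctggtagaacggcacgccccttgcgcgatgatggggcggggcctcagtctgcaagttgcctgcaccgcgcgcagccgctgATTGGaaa

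In the order along the chromosome, Psmb9, Tap1, Psmb8 and Tap2 are 4 consecutive annotated genes on chromosome 17. Of the 10 genes, 7 lie on chromosome 17, where the mouse MHC is, 2 on chromosome 8 (Psmb10 and Nlrc5) and 1 on chromosome 2 (B2m).

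The class I genes spanned a wide range of expression. Averaged over the 9 libraries, B2m had 246.8 FPKM, H2-K1 146.5 FPKM, H2-D1 115.5 FPKM and Tapbp 45.0 FPKM. Psmb10 followed with 20.5 FPKM, Tap2 with 11.4 FPKM, Tap1 with 7.06 FPKM, Psmb8 with 4.66 FPKM, Psmb9 with 3.14 FPKM and Nlrc5 with 1.49 FPKM. The ranges over the 9 libraries were apart for H2-D1 and Tapbp and for Tapbp and Psmb10, and they overlapped for each of the other 7 neighbouring pairs in that order. Among the libraries, CTX_HCQ 3 stood apart: it was the lowest of the 9 for 6 of the 10 genes. The members' log2 differences that rest on it are given with and without it, and those of the other gene lists only in part. The recovered read number behind a value ran from 110 to 330 for Psmb9 and from 4121 to 8921 for H2-K1.

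**Figure D1:**
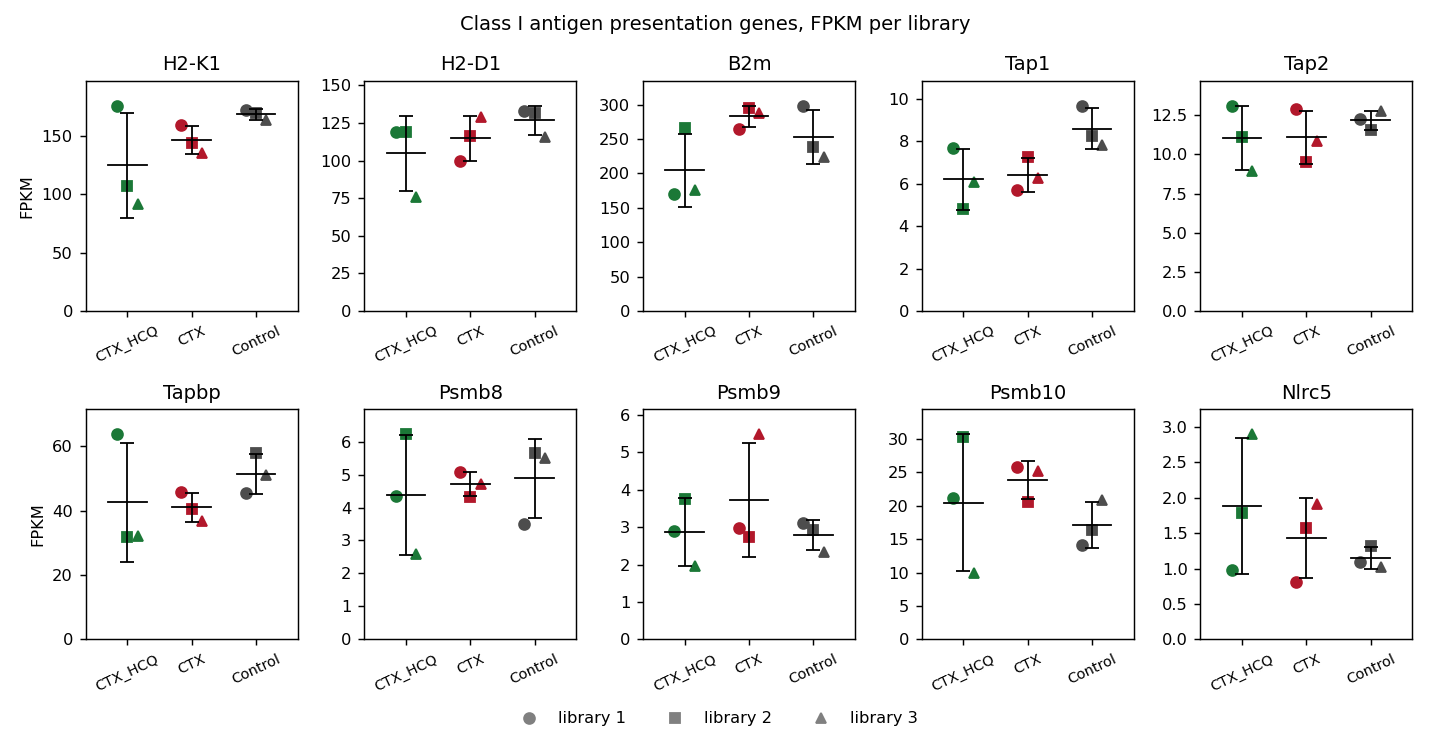
FPKM of the 10 class I genes (linear axis from 0) in CTX_HCQ, CTX and Control libraries; each symbol is 1 library, the horizontal line is the group mean and the bar is 1 SD (n = 3). The CTX_HCQ libraries are spread most widely for 9 of the 10 genes, Psmb9 being the exception, and Tap1 is the one gene for which all CTX_HCQ and all CTX libraries sit below all Control libraries.

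The 2 classical heavy chains, H2-K1 and H2-D1, bind the peptide and are read by CD8 T cells. H2-K1 had 176, 107 and 91.4 FPKM in CTX_HCQ cells, 160, 144 and 136 FPKM in CTX cells, and 173, 169 and 163 FPKM in Control cells. Every CTX library was below every Control library, while the CTX_HCQ libraries held both the highest and the lowest value of the 9. The coefficient of variation of H2-K1 was 36.0% in CTX_HCQ, 8.27% in CTX and 2.79% in Control. H2-K1 differed by -0.20 (log2, 95% interval -0.79 to 0.39) for CTX minus Control, with a limma adjusted p of 0.810. The differences were -0.28 (-0.88 to 0.31) for CTX_HCQ minus CTX and -0.49 (-1.08 to 0.10) for CTX_HCQ minus Control, with limma adjusted p values of 0.906 and 1. Without CTX_HCQ 3 these were -0.09 and -0.29.

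H2-D1 had 119, 119 and 75.9 FPKM in CTX_HCQ cells, 99.5, 116 and 129 FPKM in CTX cells, and 133, 132 and 116 FPKM in Control cells. CTX_HCQ 3 was the lowest library, and the groups overlapped in all 3 comparisons. The log2 differences of H2-D1 were -0.15 for CTX minus Control (limma adjusted p = 0.846), -0.15 for CTX_HCQ minus CTX (0.936) and -0.30 for CTX_HCQ minus Control (1). Without CTX_HCQ 3 the last 2 were 0.06 and -0.09. Heavy chains share part of their sequence with one another. Of the 50-base words in their GENCODE M21 transcripts, 9.63% of those of H2-K1 and 12.8% of those of H2-D1 recur in transcripts of other genes, mostly each other and H2-Q genes, so counts of single heavy chains are uncertain by reads that fit several.

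The light chain B2m, which every class I heavy chain needs to fold and reach the surface, was the most abundant member. It had 170, 266 and 176 FPKM in CTX_HCQ cells, 265, 295 and 288 FPKM in CTX cells, and 298, 238 and 224 FPKM in Control cells. CTX_HCQ 1 and CTX_HCQ 3 were below every other library, and CTX_HCQ 2 lay inside the CTX range.
For CTX_HCQ minus CTX, B2m differed by -0.50 on the log2 scale (95% interval -1.08 to 0.08, limma adjusted p = 0.906), which was the largest difference among the members in that comparison. Without CTX_HCQ 2 the difference was -0.70 (limma adjusted p = 0.222), and without CTX_HCQ 3 it was -0.41. It was 0.17 for CTX minus Control (limma adjusted p = 0.839) and -0.33 for CTX_HCQ minus Control (limma adjusted p = 1), or -0.24 without CTX_HCQ 3.

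The heavy chains and the light chain did not keep one ratio. The summed FPKM of H2-K1 and H2-D1 over that of B2m was 1.73, 0.850 and 0.949 in CTX_HCQ cells, 0.978, 0.883 and 0.918 in CTX cells, and 1.03, 1.26 and 1.24 in Control cells. All 3 CTX libraries were below all 3 Control libraries, and CTX_HCQ 1 was above all others. Of single tested genes, 19.7% did not overlap between CTX and Control in either direction. B2m has 860 summed exon bases against 2938 for H2-K1 and 2579 for H2-D1, so a trend by gene length does not cancel in the ratio. With the length trend removed, CTX minus Control was -0.016 for B2m, -0.26 for H2-K1 and -0.23 for H2-D1 (log2). The ratio was described after the values were seen and was not tested. The table gives RNA of whole preparations, in which fewer cells of a type and less RNA per cell cannot be told apart.

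Tap1 and Tap2, which together form the peptide transporter, were at modest levels. Tap1 had 7.69, 4.83 and 6.08 FPKM in CTX_HCQ cells, 5.69, 7.26 and 6.27 FPKM in CTX cells, and 9.67, 8.25 and 7.84 FPKM in Control cells. All 6 libraries from cyclophosphamide-treated mice were below all 3 Control libraries. The Tap1 mean was 25.4% lower in CTX than in Control, a log2 difference of -0.37 (95% interval -0.79 to 0.04, limma adjusted p = 0.653). It was 27.8% lower in CTX_HCQ than in Control, a log2 difference of -0.43 (95% interval -0.84 to -0.01, limma adjusted p = 1). Between CTX_HCQ and CTX the difference was -0.05 (95% interval -0.47 to 0.36). Both differences from Control use the same 3 Control libraries, so they are not independent of each other.

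Tap2 stayed closer between groups, with 13.1, 11.1 and 8.96 FPKM in CTX_HCQ cells, 12.9, 9.49 and 10.9 FPKM in CTX cells, and 12.3, 11.5 and 12.8 FPKM in Control cells. The groups overlapped in all 3 comparisons, and the log2 differences of Tap2 lay between -0.14 and -0.01, each with a standard error of 0.18. Without CTX_HCQ 3, Tap2 differed by 0.12 for CTX_HCQ minus CTX and by -0.01 for CTX_HCQ minus Control. Tapbp, the tapasin gene, had 63.8, 31.8 and 32.1 FPKM in CTX_HCQ cells, 45.7, 40.5 and 36.7 FPKM in CTX cells, and 45.4, 57.7 and 51.1 FPKM in Control cells. CTX_HCQ 1 was the highest of all libraries for Tapbp, and CTX_HCQ 2 and CTX_HCQ 3 the lowest. The log2 difference of Tapbp was -0.32 for CTX minus Control (limma adjusted p = 0.717), -0.02 for CTX_HCQ minus CTX (0.996) and -0.34 for CTX_HCQ minus Control (1). Without CTX_HCQ 3 the last 2 were 0.14 and -0.18.

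Psmb8, Psmb9 and Psmb10 are the catalytic subunits of the immunoproteasome. Psmb8 had 4.33, 6.23 and 2.60 FPKM in CTX_HCQ cells, 5.08, 4.33 and 4.72 FPKM in CTX cells, and 3.50, 5.64 and 5.51 FPKM in Control cells. Psmb9 had 2.90, 3.77 and 1.96 FPKM in CTX_HCQ cells, 2.99, 2.73 and 5.49 FPKM in CTX cells, and 3.11, 2.94 and 2.34 FPKM in Control cells. Psmb9 was highest in CTX 3 and both subunits were lowest in CTX_HCQ 3, and the groups overlapped in all 3 comparisons. The log2 difference of Psmb8 was -0.02 for CTX minus Control, -0.14 for CTX_HCQ minus CTX and -0.16 for CTX_HCQ minus Control, each with a standard error of 0.26. The log2 difference of Psmb9 was 0.28 for CTX minus Control, -0.27 for CTX_HCQ minus CTX and 0.01 for CTX_HCQ minus Control, each with a standard error of 0.25. Without CTX_HCQ 3, CTX_HCQ minus CTX was 0.12 for Psmb8 and -0.09 for Psmb9, and CTX_HCQ minus Control was 0.0998 for Psmb8 and 0.19 for Psmb9.

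Psmb10 was the most abundant of the 3 subunits, with 21.2, 30.4 and 9.90 FPKM in CTX_HCQ cells, 25.8, 20.6 and 25.1 FPKM in CTX cells, and 14.1, 16.4 and 20.9 FPKM in Control cells. CTX_HCQ held both the highest and the lowest library, and CTX 1 and CTX 3 were above all Control libraries. The Psmb10 mean was 39.3% higher in CTX than in Control, a log2 difference of 0.47 (95% interval -0.29 to 1.22, limma adjusted p = 0.687). This was the largest difference among the members in that comparison. For CTX_HCQ minus CTX it was -0.33 (95% interval -1.09 to 0.42), and without CTX_HCQ 3 it was 0.09. For CTX_HCQ minus Control it was 0.13, and without CTX_HCQ 3 it was 0.56 (limma adjusted p = 0.941).

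Each immunoproteasome subunit takes the place of a constitutive one, and their FPKM ratio within a library does not depend on the scaling between libraries. It does depend on summed exon length, by which FPKM is divided. These lengths are 3381 and 899 bases for Psmb8 and Psmb5, and 3660 and 1872 bases for Psmb9 and Psmb6. For Psmb10 and Psmb7 they are 1705 and 3421 bases. A trend by gene length within a library, as described below, therefore does not cancel in the ratio. Psmb8 over Psmb5 was 3.01%, 3.35% and 5.28% in CTX_HCQ cells, 2.90%, 3.35% and 3.83% in CTX cells, and 2.74%, 4.59% and 4.30% in Control cells. Psmb9 over Psmb6 was 4.42%, 3.18% and 5.50% in CTX_HCQ cells, 2.94%, 3.78% and 5.65% in CTX cells, and 4.15%, 4.61% and 3.65% in Control cells. In all 9 libraries these 2 interferon-inducible subunits were thus a small fraction of their constitutive counterparts in FPKM. By recovered reads, which are not divided by length, the gap was smaller. Psmb8 had 135 to 368 reads and Psmb5 680 to 2924, while Psmb9 had 110 to 330 reads and Psmb6 1023 to 3871.

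Psmb10 over Psmb7 stood apart from them, at 100.5%, 153% and 78.4% in CTX_HCQ cells, 84.5%, 77.2% and 145% in CTX cells, and 55.2%, 72.6% and 94.7% in Control cells. In FPKM the Psmb10 ratio was thus of the order of 1 to 1, and it exceeded 100% in CTX_HCQ 1, CTX_HCQ 2 and CTX 3. By recovered reads Psmb10 was below Psmb7 in every library, with 259 to 905 reads for Psmb10 and 663 to 1760 for Psmb7. In CTX_HCQ 2 and CTX 3, where the ratio was highest, genes of a length similar to Psmb10 had a median deviation of 0.25 (log2). The part of gene length in the ratios was not tested. The mean log2 ratio of Psmb10 over Psmb7 differed by 0.44 for CTX minus Control and by 0.55 for CTX_HCQ minus Control. None of 9 tests of these ratios passed, with two-sided exact permutation p values between 0.2 and 1, all adjusted to 1 over the 9 tests. With 3 libraries against 3, the smallest p this test can give is 0.1.

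**Figure D2:**
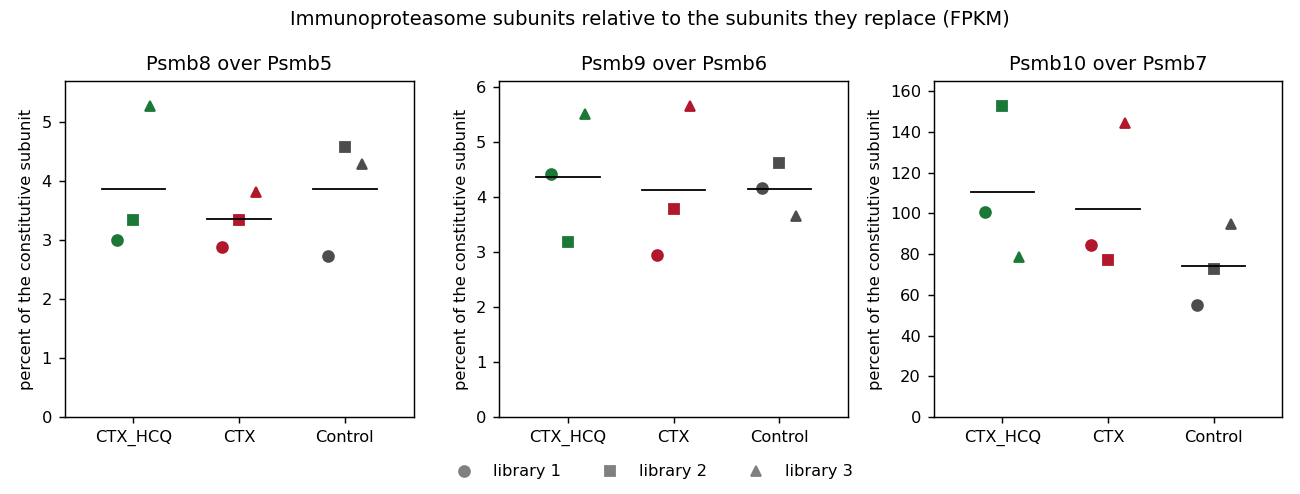
FPKM of each immunoproteasome subunit as a percentage of the constitutive subunit it replaces (linear axes from 0), in CTX_HCQ, CTX and Control libraries; symbols are libraries and lines are group means. Psmb8 and Psmb9 stay under 6% in every library, whereas Psmb10 lies between 55.2% and 153%.

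Nlrc5, the transactivator of class I genes, was the lowest member, at 0.987, 1.78 and 2.90 FPKM in CTX_HCQ cells, 0.812, 1.57 and 1.91 FPKM in CTX cells, and 1.10, 1.32 and 1.03 FPKM in Control cells. Its values rested on 116 to 378 recovered reads per library. CTX_HCQ 3 was the highest library and CTX 1 the lowest, and the groups overlapped in all 3 comparisons. Nlrc5 differed by 0.15 (log2) for CTX minus Control, by 0.22 for CTX_HCQ minus CTX and by 0.38 for CTX_HCQ minus Control, each with a standard error of 0.28. Without CTX_HCQ 3 the last 2 differences were -0.02 and 0.13.

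Taken over the 10 genes, no member passed limma's adjusted threshold of 0.05 in any comparison, and no gene did among all 14431, a background of 0%. With voom on the recovered reads of 14370 genes, 0 genes passed in each comparison as well. Counts of higher and lower means, here and for the gene lists that follow, compare group means of log2(FPKM + 1). For CTX minus Control, 4 members had a higher mean and 6 a lower one, and their median log2 difference was -0.08, beside -0.0045 over all tested genes. Their limma adjusted p values ran from 0.653 upwards. No member had an unadjusted limma p under 0.05, against 7.8% of all tested genes, 3.6% being higher and 4.2% lower in CTX. H2-K1 and Tap1, 2 of the 10, did not overlap between the groups, both lower in CTX, against 11% of all tested genes that were lower in CTX without overlap, 8.72% that were higher and 19.7% in either direction.

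For CTX_HCQ minus CTX, 1 member (Nlrc5) had a higher mean and 9 a lower one, with a median log2 difference of -0.15, beside 0.01 over all tested genes. By mean FPKM, Tapbp was also higher in CTX_HCQ, so that 2 were higher and 8 lower. No member was without overlap, against 8.02% of all tested genes (3.45% higher and 4.57% lower in CTX_HCQ). None had an unadjusted limma p under 0.05, against 5.44% of all tested genes (1.84% higher and 3.6% lower). Without CTX_HCQ 3, 5 members had a higher mean and 5 a lower one, with a median of 0.02. Without CTX 3 and CTX_HCQ 3 together, 7 had a higher mean and 3 a lower one, with a median of 0.12. This comparison and the one above share the CTX libraries.

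For CTX_HCQ minus Control, 3 members had a higher mean and 7 a lower one, with a median log2 difference of -0.23, beside -0.01 over all tested genes. Tap1 was the 1 member without overlap, lower in CTX_HCQ, against 3.06% of all tested genes that were lower without overlap, 3.25% that were higher and 6.31% in either direction. Tap1 was also the 1 member with an unadjusted limma p under 0.05, against 1.07% of all tested genes that were lower at that threshold, 1.09% that were higher and 2.16% in either direction. Without CTX_HCQ 3, 4 members had a higher mean and 6 a lower one, with a median of -0.05.

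**Figure D3:**
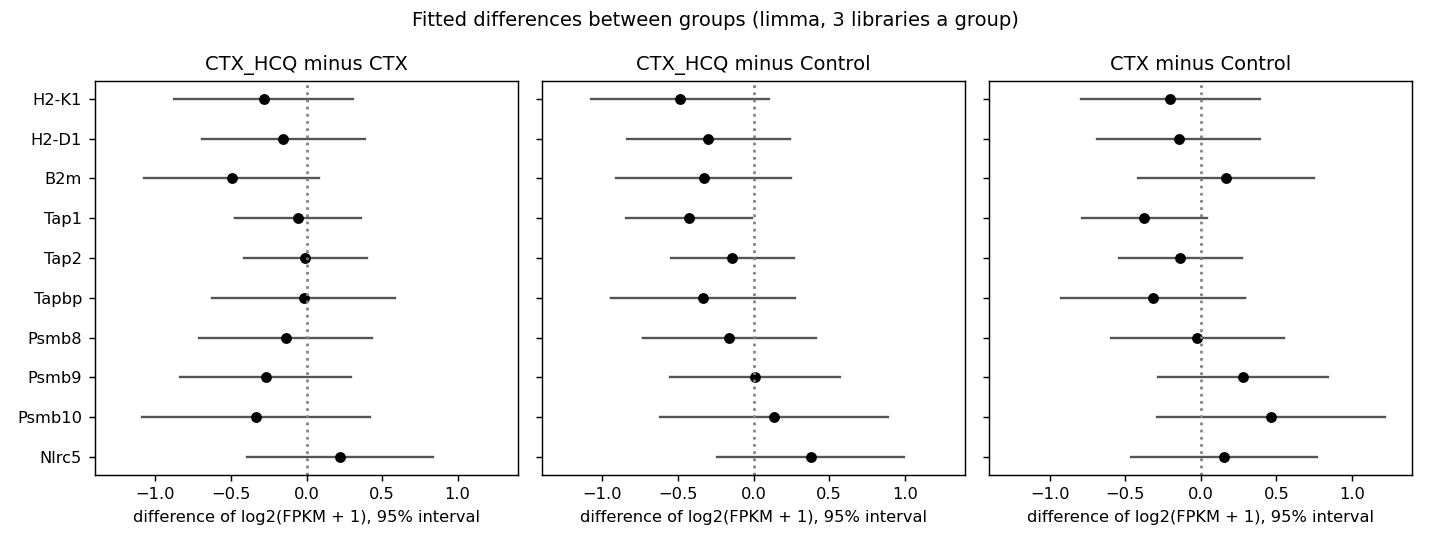
Fitted log2 differences of the 10 class I genes with their 95% intervals (limma, 3 libraries a group) for CTX_HCQ minus CTX, CTX_HCQ minus Control and CTX minus Control. Of the 30 intervals, the one for Tap1 in CTX_HCQ minus Control is the single one that does not reach 0, ending at -0.01.

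The 6 members lowest in CTX_HCQ 3 were H2-K1, H2-D1, Tap2, Psmb8, Psmb9 and Psmb10, whereas 24.8% of all tested genes were lowest there. In that library 9 of the 10 members lay below their own mean over the 9 libraries, with a median deviation of -0.45 (log2). The summed FPKM of the members was 408 in CTX_HCQ 3 and between 579 and 693 in the other 8 libraries. The scale behind the FPKM of CTX_HCQ 3 was 10.4% above its recovered reads, against -2.64% to 2.38% in the other 8 libraries, which lowers every FPKM of that library relative to its read total. Across the 9 libraries that scale followed the median-of-ratios size factors of the recovered reads, being 1.0018 to 1.0027 times the scale they give. Per recovered read total the members summed to 451 in CTX_HCQ 3 and to between 574 and 695 in the other 8, and 5 members were lowest in CTX_HCQ 3. Nlrc5 alone ran the other way and was highest there.

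CTX_HCQ 3 also differed from the other libraries by gene length over all tested genes. Of tested genes with summed exons of up to 2683 bases, 38.1% were lowest in CTX_HCQ 3, against 9.0% of those above 5321 bases. Of the genes above 5321 bases, 36.7% were highest there. In 10 bins of genes by exon length, the median deviation in CTX_HCQ 3 was -0.38 at a median length of 1349 bases and 0.28 at 11726 bases. In the same bins CTX_HCQ 2 had 0.25 and -0.17, CTX 3 had 0.25 and -0.22, and CTX 1 had 0.18 and -0.14, all 3 in the opposite direction. In the bin of the shortest genes, at a median of 455 bases, CTX_HCQ 3 had -0.094, so its trend was not steady. Psmb10 (1705 bases) deviated by -0.92 and Nlrc5 (8493 bases) by 0.69 in CTX_HCQ 3.
Against the median of all tested genes in its own length bin, 9 of the 10 members lay lower in CTX_HCQ 3, with a median of -0.33 for the 10, and Nlrc5 lay higher by 0.51. With the length trend removed from every library, the members' median log2 difference was -0.11 for CTX_HCQ minus CTX and -0.21 for CTX_HCQ minus Control.

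**Figure D4:**
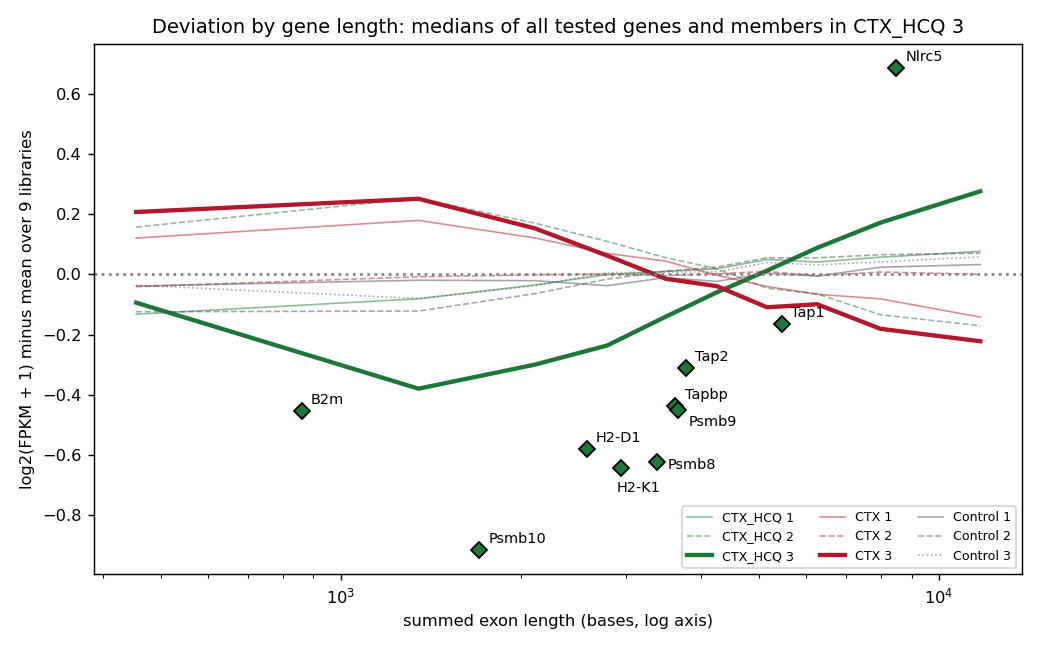
Deviation of log2(FPKM + 1) from the mean of each gene over the 9 libraries, against summed exon length on a log axis; lines are medians of all tested genes in 10 bins by length, 1 line per library, and diamonds are the 10 class I genes in CTX_HCQ 3. The CTX_HCQ 3 line falls from -0.094 at 455 bases to -0.38 at 1349 bases and then climbs to 0.28 at 11726 bases. Of the 10 diamonds, 9 lie below 0.

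**Figure D5:**
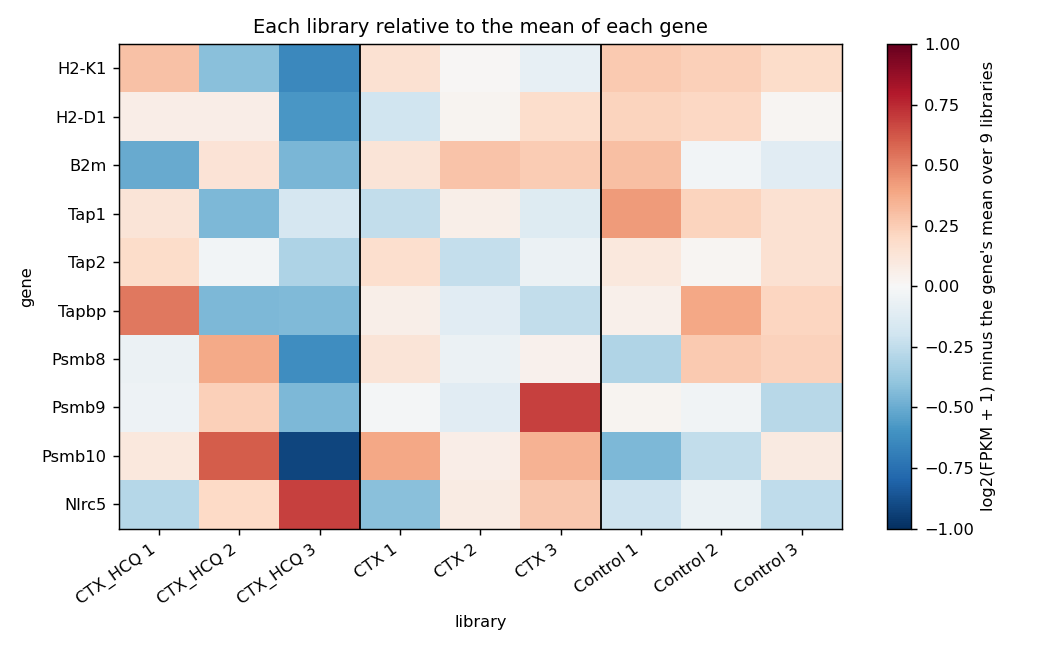
Deviation of each class I gene from its mean over the 9 libraries (colour, log2 scale) in CTX_HCQ, CTX and Control libraries, in columns. The CTX_HCQ 3 column is below the mean in 9 of 10 rows, and the Control columns are above the mean for H2-K1, H2-D1, Tap1, Tap2 and Tapbp.

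The granulosa label was checked against 14 granulosa markers, all of which passed the filter, with a summed level of 5256 to 6228 FPKM in CTX_HCQ, 5061 to 7377 FPKM in CTX and 4371 to 6516 FPKM in Control libraries. The smallest library by recovered reads was CTX_HCQ 3 (13894459) and the largest Control 2 (17723056), and mitochondrial genes took 28.9% of the summed FPKM in CTX 3, against 11.7% to 17.5% in the other 8. Markers of other cells were also present. Theca markers summed to 2539 to 5642 FPKM in CTX_HCQ, 5625 to 7778 FPKM in CTX and 3323 to 6097 FPKM in Control libraries, similar in size to the granulosa sums. In the same order, luteal markers summed to 376 to 647, 492 to 1285.5 and 399 to 798 FPKM. Erythroid markers summed to 293 to 860, 341 to 569 and 471 to 3310 FPKM. Oviduct and ciliated markers were at 44.4 to 54.3 FPKM in CTX_HCQ, 109 to 434 FPKM in CTX and 33.4 to 117 FPKM in Control libraries. The part of these cells in the class I values was not tested. Such sums of FPKM do not give numbers of cells, and the theca and luteal lists share Lhcgr.

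Class I genes are high in leukocytes and in endothelium, so markers of those cells were summed. Macrophage and dendritic cell markers, of which 11 of 15 passed the filter, summed to 157 to 276 FPKM in CTX_HCQ, 190 to 234 FPKM in CTX and 150 to 218 FPKM in Control libraries. Of these 11, 7 had a higher mean in CTX than in Control, 5 in CTX_HCQ than in CTX and 6 in CTX_HCQ than in Control. Without CTX_HCQ 3 the last 2 counts were 8 and 9. The pan-leukocyte gene Ptprc did not pass the filter and stayed below 1 FPKM in every library. Lymphocyte markers, of which 8 of 16 passed, summed to 13.4 to 19.3 FPKM in CTX_HCQ, 13.4 to 21.5 FPKM in CTX and 16.4 to 34.1 FPKM in Control libraries. Cd3e, a CD3 chain of the T cell receptor complex, stayed under 0.5 FPKM in every library. The receptor chain genes Trac and Trbc2, on the same list, passed the filter. Of the 8 tested lymphocyte markers, 6 had a lower mean in CTX than in Control, with a median log2 difference of -0.45 and 3 of them at an unadjusted limma p under 0.05, against 4.2% of all tested genes that were lower. For CTX_HCQ minus Control 7 of the 8 were lower, with a median of -0.59, and 4 of them were at that threshold, against 1.07% of all tested genes that were lower. The 1 higher marker, Jchain, was at that threshold too, against 1.09% of all tested genes that were higher. Between CTX_HCQ and CTX, 6 of the 8 were lower in CTX_HCQ, with a median of -0.21. The 1 marker at that threshold there was higher in CTX_HCQ, against 1.84% of all tested genes that were higher. Without CTX_HCQ 3, 4 markers were lower and 4 higher, with a median of -0.0053. Endothelial markers, of which 11 of 12 passed, summed to 49.5 to 130 FPKM in CTX_HCQ, 67.6 to 126 FPKM in CTX and 40.0 to 99.9 FPKM in Control libraries, 11 of the 11 tested having a higher mean in CTX than in Control, 3 in CTX_HCQ than in CTX and 10 in CTX_HCQ than in Control. No marker of these 3 lists was at 0 in all libraries, and the part of these cells in the class I values was not tested.

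Of 15 other class I heavy chains, the non-classical ones, 7 passed the filter. For CTX minus Control, 1 had a higher mean and 6 a lower one, with a median log2 difference of -0.38. The split was 5 higher and 2 lower for CTX_HCQ minus CTX, and 1 higher and 6 lower for CTX_HCQ minus Control, and none passed the adjusted threshold. H2-T23, the Qa-1 heavy chain read by NKG2 receptors of natural killer cells, averaged 43.0 ± 16.2 FPKM in CTX_HCQ, 36.1 ± 4.85 FPKM in CTX and 43.4 ± 7.40 FPKM in Control (SD, n = 3 each). Its log2 difference for CTX_HCQ minus Control was -0.08, and without CTX_HCQ 3 it was 0.27. H2-M3, which presents formylated peptides, averaged 18.3 ± 2.52 FPKM in CTX_HCQ, 15.0 ± 2.08 FPKM in CTX and 19.9 ± 3.16 FPKM in Control, and its CTX libraries were all below its Control libraries (log2 difference -0.38, limma adjusted p = 0.653). Of the 7 tested chains, H2-M3 was the 1 without overlap in that comparison, against 11% of all tested genes that were lower and 8.72% that were higher. H2-Q4 averaged 15.8 ± 3.22 FPKM in CTX_HCQ, 19.5 ± 7.50 FPKM in CTX and 16.8 ± 0.535 FPKM in Control. H2-Q10, a secreted chain, averaged 5.93 ± 5.13 FPKM in CTX_HCQ, 3.34 ± 1.41 FPKM in CTX and 8.50 ± 5.64 FPKM in Control. H2-T24 and H2-M5 were lower still, with means between 0.285 and 2.16 FPKM.

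Beta-2-microglobulin also pairs with heavy chains that present lipids or metabolites or carry other cargo, and 4 of 5 such partners passed the filter. Their split was 1 higher and 3 lower for CTX minus Control, 3 higher and 1 lower for CTX_HCQ minus CTX, and 1 higher and 3 lower for CTX_HCQ minus Control (2 and 2 by mean FPKM), with none past the adjusted threshold. Fcgrt, the neonatal Fc receptor, averaged 67.7 ± 28.3 FPKM in CTX_HCQ, 54.5 ± 8.34 FPKM in CTX and 63.7 ± 6.35 FPKM in Control (SD, n = 3 each). Cd1d1, which presents lipids, averaged 19.6 ± 0.762 FPKM in CTX_HCQ, 19.6 ± 2.74 FPKM in CTX and 16.7 ± 2.16 FPKM in Control. Mr1, which presents vitamin B metabolites, had 4.39, 2.37 and 3.90 FPKM in CTX_HCQ cells, all below the 5.28, 4.56 and 5.17 FPKM of Control cells (log2 difference -0.42, limma adjusted p = 1). Mr1 was the 1 of these 4 partners without overlap in that comparison, against 3.06% of all tested genes that were lower and 3.25% that were higher. Hfe, which controls iron uptake, differed by at most 0.18 (log2) in either direction.

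Peptide loading and trimming genes all passed the filter, 10 of 10, and none passed the adjusted threshold. For CTX minus Control 4 had a higher mean and 6 a lower one, with 2 of the 6 at an unadjusted limma p under 0.05, against 4.2% of all tested genes that were lower at that threshold. Those 2 are the trimming peptidases Erap1, which cuts peptides in the endoplasmic reticulum, and Lnpep, its relative in endosomes. Erap1 had 11.4, 7.37 and 9.31 FPKM in CTX_HCQ cells, 8.03, 9.59 and 6.16 FPKM in CTX cells, and 11.8, 12.3 and 12.1 FPKM in Control cells. All CTX and all CTX_HCQ libraries were below all Control libraries for Erap1, with a log2 difference of -0.57 for CTX minus Control (limma adjusted p = 0.639) and -0.35 for CTX_HCQ minus Control (limma adjusted p = 1). Lnpep had 13.9, 6.34 and 14.0 FPKM in CTX_HCQ cells, 8.69, 10.02 and 5.45 FPKM in CTX cells, and 12.9, 12.3 and 13.7 FPKM in Control cells, with a log2 difference of -0.66 for CTX minus Control (limma adjusted p = 0.639). Both peptidases have long summed exons, 7280 bases for Erap1 and 14144 bases for Lnpep, and were lowest in CTX 3, where long genes were low. Without CTX 3 the log2 difference for CTX minus Control was -0.42 for Erap1 and -0.43 for Lnpep, and with the length trend removed it was -0.45 for Erap1 and -0.47 for Lnpep.

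The chaperones Calr, Canx and Pdia3 of the loading complex were abundant and overlapped between groups in every comparison. Calreticulin (Calr) averaged 379 ± 66.1 FPKM in CTX_HCQ, 508 ± 129 FPKM in CTX and 445 ± 88.0 FPKM in Control (SD, n = 3 each). Calnexin (Canx) averaged 144 ± 25.6 FPKM in CTX_HCQ, 138 ± 44.4 FPKM in CTX and 168 ± 25.2 FPKM in Control. The disulphide isomerase Pdia3 averaged 446 ± 175 FPKM in CTX_HCQ, 469 ± 101 FPKM in CTX and 392 ± 59.0 FPKM in Control. Tapbpl, a tapasin relative that edits peptides, averaged 7.63 ± 2.12 FPKM in CTX_HCQ, 5.89 ± 0.394 FPKM in CTX and 7.40 ± 0.833 FPKM in Control, and its CTX libraries were all below its Control libraries. Hspa5, the BiP chaperone, averaged 465 ± 143 FPKM in CTX_HCQ, 444 ± 37.9 FPKM in CTX and 383 ± 17.5 FPKM in Control, and its CTX libraries were all above its Control libraries (log2 difference 0.21, limma adjusted p = 0.815). Of the 10 loading and trimming genes, 3 were thus lower and 1 higher in CTX than in Control without overlap, against 11% of all tested genes that were lower and 8.72% that were higher. For CTX_HCQ minus Control 2 of the 10, Erap1 and Ide, were lower and 0 higher without overlap, against 3.06% and 3.25%. These chaperones serve many glycoproteins besides class I.

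The proteasome activator and constitutive catalytic subunits, 8 of 8 tested, split into 7 higher and 1 lower for CTX minus Control, and 0 higher and 8 lower for CTX_HCQ minus CTX, with none past the adjusted threshold. Their median log2 difference was 0.16 for CTX minus Control and -0.40 for CTX_HCQ minus CTX, 2 comparisons that share the CTX libraries. For CTX_HCQ minus Control the split was 3 higher and 5 lower by log2 means but 6 higher and 2 lower by mean FPKM, so its direction turns with the scale. Without CTX_HCQ 3 the split was 2 higher and 6 lower for CTX_HCQ minus CTX, with a median of -0.07, and 5 higher and 3 lower for CTX_HCQ minus Control, with a median of 0.38. Psme2, a subunit of the interferon-inducible activator PA28, had 30.8, 39.6 and 15.997 FPKM in CTX_HCQ cells, 40.7, 30.3 and 43.1 FPKM in CTX cells, and 26.3, 18.9 and 30.1 FPKM in Control cells. Its CTX libraries were all above its Control libraries, with a log2 difference of 0.59 (limma adjusted p = 0.653). Its partner Psme1 averaged 64.9 ± 37.0 FPKM in CTX_HCQ, 67.2 ± 19.0 FPKM in CTX and 58.8 ± 10.6 FPKM in Control (SD, n = 3 each). Pomp, which assembles the proteasome, averaged 15.0 ± 7.98 FPKM in CTX_HCQ, 20.5 ± 3.71 FPKM in CTX and 13.6 ± 1.84 FPKM in Control, again with every CTX library above every Control library (log2 difference 0.55, limma adjusted p = 0.653). Of the 8, 2 were thus higher and 0 lower in CTX without overlap, against 8.72% and 11% of all tested genes. For CTX_HCQ minus Control 0 were higher and 1, Psmb7, lower without overlap, against 3.25% and 3.06%. With the length trend removed, CTX minus Control was -0.025 for Psmb5, 0.031 for Psmb7 and 0.057 for Psme1. It was 0.26 for Psmb6, 0.44 for Psme2, 0.61 for Pomp and -0.24 for Psme3. The summed level of these 8 genes was 195 FPKM in CTX_HCQ 3, against 407 and 527 FPKM in the other CTX_HCQ libraries, 384 to 491 FPKM in CTX and 358 to 382 FPKM in Control.

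Of 17 factors that control class I transcription, 16 passed the filter, and their means were evenly split for CTX minus Control, 8 higher and 8 lower. The split was 9 higher and 7 lower for CTX_HCQ minus CTX, and 11 higher and 5 lower for CTX_HCQ minus Control, and none passed the adjusted threshold. Irf1, an interferon regulatory factor that binds class I promoters, had 8.36, 10.3 and 7.84 FPKM in CTX_HCQ cells, 8.73, 9.27 and 11.1 FPKM in CTX cells, and 8.09, 8.90 and 7.31 FPKM in Control cells. The Irf1 groups overlapped in all 3 comparisons. Rfx5, which binds the X box, averaged 4.48 ± 1.81 FPKM in CTX_HCQ, 3.33 ± 0.795 FPKM in CTX and 4.09 ± 0.436 FPKM in Control (SD, n = 3 each). Nfyc, a subunit of the Y box factor, was lower in all CTX_HCQ libraries than in all Control libraries, with means of 14.0 ± 1.85 FPKM in CTX_HCQ and 18.1 ± 1.41 FPKM in Control (log2 difference -0.35, limma adjusted p = 1). Creb1 and Nfkb1 were higher in all CTX_HCQ than in all CTX libraries, with log2 differences of 0.28 for Creb1 and 0.20 for Nfkb1 and limma adjusted p values of 0.906 each. With the length trend removed these differences were 0.072 for Creb1 and 0.018 for Nfkb1. Irf9, which joins the factors activated by type I interferon, was lower in all CTX_HCQ than in all CTX libraries, with means of 5.87 ± 0.626 FPKM in CTX_HCQ and 7.09 ± 0.385 FPKM in CTX (log2 difference -0.24, limma adjusted p = 0.906). For CTX_HCQ minus CTX 2 of 16 were thus higher and 1 of 16 lower without overlap, against 3.45% and 4.57% of all tested genes. For CTX_HCQ minus Control 0 of 16 were higher and 1, Nfyc, lower without overlap, against 3.25% and 3.06%. Ciita, the class II counterpart of Nlrc5, was the factor that did not pass the filter, at no more than 0.574 FPKM.

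Interferon ligands were scarcely detected. Ifng had at most 0.138 FPKM, Ifnb1 at most 0.0812 FPKM, Ifnk at most 0.0711 FPKM and Ifne at most 0.0917 FPKM, each being listed at 0 in at least 3 libraries. The remaining 9 of the 13 genes of interferon signalling passed the filter, with 5 higher and 4 lower for CTX minus Control, the same split for CTX_HCQ minus CTX, and 3 higher and 6 lower for CTX_HCQ minus Control (5 and 4 by mean FPKM), and none passed the adjusted threshold. Without CTX_HCQ 3 the split for CTX_HCQ minus CTX was 3 higher and 6 lower. Socs1, which shuts off signalling by interferon receptors, had 2.76, 4.80 and 2.67 FPKM in CTX_HCQ cells, 10.3, 13.5 and 5.21 FPKM in CTX cells, and 3.79, 2.20 and 1.69 FPKM in Control cells. All CTX libraries were above all libraries of the CTX_HCQ and Control groups, with log2 differences of 1.54 for CTX minus Control (limma adjusted p = 0.639) and -1.23 for CTX_HCQ minus CTX (limma adjusted p = 0.522). Ifngr1, the ligand-binding chain of the receptor for interferon gamma, was lower in all CTX_HCQ than in all CTX libraries, with means of 13.9 ± 1.88 FPKM in CTX_HCQ and 18.5 ± 1.17 FPKM in CTX (log2 difference -0.39, limma adjusted p = 0.906). Ifnar1, a chain of the type I receptor, averaged 21.5 ± 2.78 FPKM in CTX and 26.9 ± 1.82 FPKM in Control without overlap (log2 difference -0.32, limma adjusted p = 0.666). Ifnar2 was also lower in CTX than in Control without overlap. For CTX minus Control 1 of the 9 was higher and 2 were lower without overlap, against 8.72% and 11% of all tested genes. For CTX_HCQ minus CTX 0 were higher and 2 lower, against 3.45% and 4.57%.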

How the data were processed

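Poly(A) RNA of isolated mouse granulosa cells was sequenced in 9 libraries, 3 in each of 3 groups taken from the labels. The authors deposited 1 table of FPKM per gene. The submitters' processing notes name HISAT2 2.0.5, fastp 0.23.2, DESeq2 1.20.0 and featureCounts 1.5.0-p3 and the build GRCm39, and the roles, settings and strandedness are not given in the sources used here, so reads of overlapping or antisense genes cannot be told apart. Symbols and exon lengths came from GENCODE M21, and 52073 of 56748 identifiers matched a symbol.

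Whole reads were recovered from the FPKM. At the annotated exon length, 13581 of 14431 tested genes (94.1%) gave reads near a whole number, within 0.02 or, for larger values, within a wider limit. This was judged in the libraries with few reads for a gene, or in all libraries where none had few. At a searched length 789 more genes gave whole reads, and 61 did not. The deposited FPKM were scaled between libraries close to median-of-ratios size factors of these reads, as found from the values. The depth this gave limits the precision of low genes such as Psmb9.

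Genes reaching 1 FPKM in 3 or more libraries were analysed as log2(FPKM + 1), which understates the change of low genes. One limma 3.58.1 model (R 4.3.3, variance trend) with a mean per group was fitted to all 9 libraries and tested on simulated data. P-values were two-sided and adjusted by the Benjamini-Hochberg method over the 14431 genes, threshold 0.05. Percentages of tested genes called or not overlapping are over the same 14431. Promoter windows were RefSeq's on GRCm38.p6, and no coordinates were converted. The members and the gene lists were chosen with earlier results of these data known. All members were named, with up to 4 genes per pathway list by smallest p and a set of fixed genes. The 6 genes nearest to the members' mean profile were also named. Interferon ligands, Ciita, Ptprc, Cd3e, Trac, Trbc2, Jchain, Hspa5, Irf9 and Ifnar2 were chosen after their values were seen. The values of 1 of the fixed genes are not reported here. Same-numbered libraries were not treated as pairs. Alternatives covered pseudocount, filter, scaling, library weights, a replicate block, voom on recovered reads and leaving out libraries. Leaving out CTX 3 and CTX_HCQ 3 together, removing the length trend and the motif spacing were chosen after seeing the data.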

Additional observations from a re-analysis of the deposited data

How the results depend on the processing

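No member passed the adjusted threshold under any alternative, and of 651 alternative values of the members' log2 differences 605 kept their sign and 46 reversed. The immunoproteasome ratios were recomputed under 72 alternatives, and 0.25 was the smallest exact permutation p among those that gave one. With so few libraries a group no such p can fall under 0.05, so these alternatives do not test whether the ratios differ. Among all 14431 genes, library weights called 648 genes for CTX minus Control, 1 for CTX_HCQ minus CTX and 1 for CTX_HCQ minus Control, against 0 in each without weights. Leaving out 1 library at a time gave 0 to 13, 0 to 10 and 0 to 0 calls in the same order, the 13 and the 10 without Control 1. Members' medians ranged from -0.12 to -0.0062, from -0.28 to 0.020 and from -0.24 to -0.049 when 1 library was left out. For CTX_HCQ minus CTX the median was 0.12 without CTX 3 and CTX_HCQ 3 together, and for CTX_HCQ minus Control it was -0.043 with library weights. The cause of these shifts was not tested.

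Members that reversed for CTX minus Control were B2m at -0.065 under quantile normalization and -0.016 without the length trend, and Psmb8 at 0.024 after rescaling without mitochondrial genes. For CTX_HCQ minus CTX, quantile normalization gave 0.0037 for H2-K1, 0.028 for H2-D1 and 0.080 for Tapbp. Library weights gave 0.096 for H2-K1, 0.072 for H2-D1, 0.16 for Tap1, 0.16 for Tap2, 0.42 for Tapbp and -0.051 for Nlrc5. Voom on recovered reads gave 0.045 for Tap2 and 0.029 for Tapbp, and removing the length trend 0.00888 and 0.00577 for the same genes. Without CTX 3 and CTX_HCQ 3 together the values were 0.15 for H2-D1, 0.11 for Tap2, 0.065 for Tapbp, 0.12 for Psmb8, 0.16 for Psmb9 and 0.13 for Psmb10. For CTX_HCQ minus Control, Psmb9 was -0.021 with quantile normalization, library weights gave 0.054 for Tap2, 0.074 for Tapbp and -0.024 for Nlrc5, and Psmb8 was 0.0998 without both libraries.

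Leaving out 1 library at a time reversed Psmb8 for CTX minus Control (-0.20 to 0.075). For CTX_HCQ minus CTX it reversed H2-D1 (-0.26 to 0.061), Tap1 (-0.20 to 0.088), Tap2 (-0.13 to 0.12), Tapbp (-0.34 to 0.15), Psmb8 (-0.38 to 0.12), Psmb10 (-0.67 to 0.092) and Nlrc5 (-0.020 to 0.47). For CTX_HCQ minus Control it reversed Psmb8 (-0.40 to 0.0998), Psmb9 (-0.15 to 0.19) and Psmb10 (-0.20 to 0.56). With a replicate block, 0 genes were called in each comparison, and 847, 668 and 293 genes had an unadjusted p under 0.05, against 1126, 785 and 312 without it. Same-numbered libraries had deviations that correlated by -0.457 to 0.135, so the numbers give no sign of pairing. In windows of 150 in place of 250 bases, the kappa-B letters were found in 2 of 8 and ATTGG in 4 of 8. Depth limits Psmb9, Nlrc5 and Psmb8, whose lowest libraries had 110, 116 and 135 recovered reads.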

Other observations

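Class II genes, which present endocytosed peptides and are normally made by professional antigen-presenting cells, were also measured. Of 10 such genes 7 passed the filter, and by means of log2(FPKM + 1) all 7 were higher in CTX than in Control, all 7 lower in CTX_HCQ than in CTX, and 6 of 7 higher in CTX_HCQ than in Control. None passed limma's adjusted threshold. The median log2 difference was 0.29 for CTX minus Control, -0.22 for CTX_HCQ minus CTX and 0.16 for CTX_HCQ minus Control, and these comparisons share libraries. Without CTX_HCQ 3, 3 of the 7 had a higher mean and 4 a lower one for CTX_HCQ minus CTX, and likewise without CTX 3; without both libraries, 6 had a higher mean and 1 a lower one. Cd74, the invariant chain, averaged 105 ± 27.9 FPKM in CTX_HCQ, 115 ± 23.4 FPKM in CTX and 93.5 ± 19.3 FPKM in Control (SD, n = 3 each). H2-Eb1 averaged 38.4 ± 23.9 FPKM in CTX_HCQ, 39.2 ± 11.8 FPKM in CTX and 28.2 ± 7.23 FPKM in Control. H2-Aa averaged 15.9 ± 7.92 FPKM in CTX_HCQ, 19.1 ± 4.34 FPKM in CTX and 12.9 ± 3.83 FPKM in Control. The summed class II level was 187, 302 and 150 FPKM in CTX_HCQ, 210, 207 and 286 FPKM in CTX, and 226, 186 and 140 FPKM in Control libraries. The highest of the 9, CTX_HCQ 2, also had the highest summed macrophage and dendritic cell markers, 276 FPKM, and the part of those cells was not tested.

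The tested genes closest to the mean profile of the 10 members over the 9 libraries were Akt1s1, Gamt, Capns1, Kars, Coq9 and Mmel1, with root-mean-square differences of 0.348 to 0.380 between standardised profiles. All 6 were lowest in CTX_HCQ 3, where Gamt had 15.0 FPKM against 50.5 to 77.8 FPKM in the other 8 libraries, and Mmel1 had 0.900 FPKM against 12.3 to 22.3 FPKM. Among the members, H2-D1 was nearest to that profile at 0.365, and Nlrc5 was farthest at 1.84, with 94.4% of other tested genes closer.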
